A study of Mus musculus with 9 samples.

Results

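The Hox genes described here are the mouse RefSeq protein-coding genes named Hoxa, Hoxb, Hoxc or Hoxd with a number. The rule goes by gene name, and 38 of the 39 genes the rule names are described, out of 21883 protein-coding genes in all. The Hoxa and Hoxb clusters contribute 10 genes each, and the Hoxc and Hoxd clusters 9 each. Each gene was read through its peaks of open chromatin, meaning every peak that overlapped the gene span or the 1 kb on either side of it.

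The assay was ATAC-seq, which uses a transposase to cut accessible DNA and tag it for sequencing. The cells were dendritic cells cultured from C57Bl/6 bone marrow in 20 ng/mL GM-CSF for 9 days, transduced with retrovirus on day 2 and sorted for the human CD8 reporter of the vector together with CD11c. OE cells carried the vector that overexpresses Pcgf6 and mi8 cells its control vector, while HP109 cells carried the vector with a hairpin RNA against Pcgf6 and LMP8 cells its own control vector. Each vector had 2 libraries behind a single deposited peak list, and all 4 lists were called against 1 shared input library, so no replicate spread exists and no test between vectors was made. The amount of Pcgf6 made in the cells cannot be read from peak lists, so the vectors are named by their labels.

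Hox genes encode homeodomain transcription factors that set positional identity along the body axis, and each cluster is ordered so that low-numbered genes pattern anterior and high-numbered genes posterior structures. In cells that do not use them, the clusters are classical targets of Polycomb repression. Pcgf6 is the defining subunit of a Polycomb complex, PRC1.6, which reaches DNA through E2F6 and through the MGA and MAX proteins. In blood, Hoxa9, Hoxa10 and Hoxb4 are known from stem and progenitor cells, and they are turned down as myeloid cells mature.

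The start sites of the clusters give a first view of the data, because few of them held a peak. RefSeq lists 24 promoters for 22 of the 38 genes on build GRCm38.p6, the assembly of mm10, each taken as 250 bases before to 50 after an annotated start. Those of Hoxa3, Hoxa5 and Hoxd3 overlapped a peak in at least 1 list, and the 250 bases before each start are printed 5′ to 3′ with every CpG in capitals, since unmethylated CpG-rich DNA is where Polycomb complexes gather. Hoxa13 is added because its promoter had the most CpG of the 24 and no peak in any list. The stretches lie at chr6:52213068-52213317 (minus strand), chr6:52204588-52204837 (minus strand), chr2:74711743-74711992 (plus strand) and chr6:52260881-52261130 (minus strand).
Hoxa3: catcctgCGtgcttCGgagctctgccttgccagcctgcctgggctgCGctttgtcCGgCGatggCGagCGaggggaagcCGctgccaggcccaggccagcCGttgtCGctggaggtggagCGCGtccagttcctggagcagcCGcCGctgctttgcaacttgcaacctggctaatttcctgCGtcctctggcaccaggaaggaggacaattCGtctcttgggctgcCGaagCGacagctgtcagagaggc
Hoxa5: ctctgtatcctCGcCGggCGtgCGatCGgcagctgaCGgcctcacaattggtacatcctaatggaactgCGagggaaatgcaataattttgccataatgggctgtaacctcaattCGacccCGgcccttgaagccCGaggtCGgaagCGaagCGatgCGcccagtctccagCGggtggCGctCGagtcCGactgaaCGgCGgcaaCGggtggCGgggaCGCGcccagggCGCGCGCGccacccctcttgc
Hoxd3: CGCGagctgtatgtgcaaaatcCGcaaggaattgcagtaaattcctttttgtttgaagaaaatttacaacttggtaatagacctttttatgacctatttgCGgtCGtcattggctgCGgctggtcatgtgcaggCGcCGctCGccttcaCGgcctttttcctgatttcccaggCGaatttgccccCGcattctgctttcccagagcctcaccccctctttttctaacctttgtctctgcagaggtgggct
Hoxa13: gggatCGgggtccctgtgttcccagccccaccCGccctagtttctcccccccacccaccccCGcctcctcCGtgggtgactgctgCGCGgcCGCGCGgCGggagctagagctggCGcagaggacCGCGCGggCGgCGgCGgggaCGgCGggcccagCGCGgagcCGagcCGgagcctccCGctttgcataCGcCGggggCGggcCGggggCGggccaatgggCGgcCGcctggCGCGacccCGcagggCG

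The full 300-base windows of Hoxa3, Hoxa5, Hoxd3 and Hoxa13 held 20, 29, 20 and 45 CpG. The Hoxa3 and Hoxa5 windows overlapped a peak in all 4 lists, and the Hoxd3 window in mi8 and HP109 alone. In HP109 the overlap at Hoxa5 and at Hoxd3 fell within the last 50 bases, which are not printed. Across the lists, 2 of the 24 Hox promoters (8.33%) overlapped a peak in OE and 3 (12.5%) in mi8, against 52.5% in OE and 57.8% in mi8 of all 21262 promoters. In HP109 3 Hox promoters (12.5%) overlapped a peak and in LMP8 2 (8.33%), against 57.0% and 56.2% of all promoters. Base composition was close to that of other promoters: the Hox median was 14.5 CpG per window, with a range of 4 to 45, against a median of 13 over all promoters, and the median GC content was 57.7%, against 56.3%.

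Short motifs were looked for in the same windows on both strands, as letters only. GCGGGAA, a sequence bound by E2F6, was in 0 of the 24 Hox promoters, against 5.95% of all promoters. CACGTG, the E-box bound by MGA with MAX, was in 5 (20.8%), against 7.84%. TGATNNAT, a site of Hox proteins with their Pbx partners, was in 4 (16.7%), against 7.45%. AGGTGTGA, a T-box sequence, and GAGGAAGT, the core bound by the myeloid factor PU.1, were in 1 promoter each, against 1.15% and 3.13% of all promoters. With so few promoters these shares are descriptions only, and none of the 5 motifs contains another.

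Markers of the labelled cell type were looked at. All 10 of 10 dendritic cell marker genes had a peak in every list, against 69.7% to 74.8% of all genes, and so had 5 of 5 macrophage markers. Most genes had a peak, and so had most stroma markers in each list, so these counts do not identify the cell type. Itgax, which encodes the CD11c used for the sort, reached a −log10 q of 70.5 in OE, 91.3 in mi8, 114.1 in HP109 and 63.9 in LMP8. A peak's −log10 q and its fold over background are the authors' own values. The lists held 111510 peaks in OE, 170976 in mi8, 170103 in HP109 and 140735 in LMP8. The local background that the peak caller drew from the input moved in steps whose size follows depth. The step in OE was 0.997 times that in mi8, in HP109 0.990 times that in LMP8, and in LMP8 0.731 times that in mi8. By this measure the lists of a pair were close, and LMP8 stood below mi8; the lists do not state read totals. The median summit held 25 reads in OE, 24 in mi8, 21 in HP109 and 19 in LMP8.

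A smaller share of Hox genes than of all genes had a peak, in every list. A peak lay in the window of 13 of the 38 Hox genes in OE (34.2%, exact 95% interval 19.6 to 51.4), against 69.7% of all protein-coding genes. In mi8 20 Hox genes had one (52.6%, interval 35.8 to 69.0), against 74.8% of all genes. In HP109 there were 24 (63.2%, interval 46.0 to 78.2), against 74.5% of all genes, and in LMP8 15 (39.5%, interval 24.0 to 56.6), against 72.6%. Only in HP109 did the interval reach the share over all genes. These intervals cover counting error alone, and they treat genes as separate although neighbouring Hox windows share peaks. Hox genes are short, with a median length of 3721.5 bp against 17170 bp over all genes, so the density per length is given as well. The Hox windows held 0.571 peaks per 10 kb in OE, against 0.659 over all gene windows, and 0.962 in mi8, against 0.983. In HP109 they held 1.14, against 0.996, and in LMP8 0.661, against 0.823. Per length, then, the Hox windows were close to other genes in mi8, above them in HP109 and below them in OE and LMP8. These densities rest on 19 Hox peaks in OE, 32 in mi8, 38 in HP109 and 22 in LMP8, and no interval was computed for them. Several HP109 peaks overlapped a single LMP8 peak, and the LMP8 count leaves out a strong site just outside the Hoxd3 window.

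**Figure D1:**
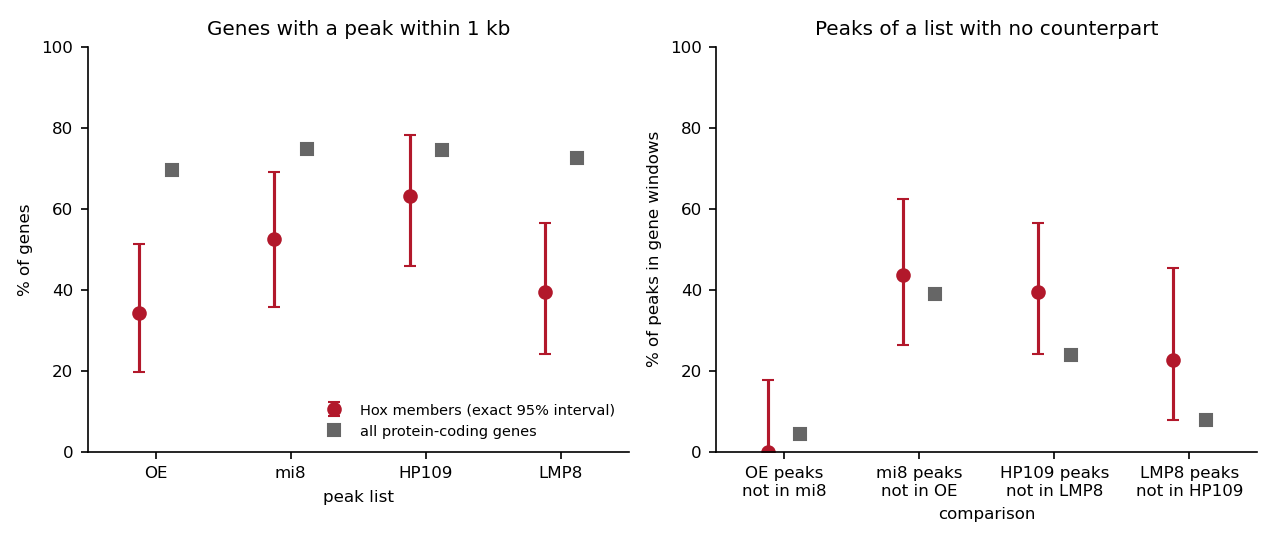
Left, the share of genes with a peak within 1 kb (%), by peak list; right, the share of peaks in gene windows with no overlapping peak in the paired list (%). Circles are the Hox genes with exact 95% intervals and squares all protein-coding genes; the Hox gene share was lowest in OE (34.2%) and highest in HP109 (63.2%), while the share over all genes stayed between 69.7% and 74.8%.

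In each list, the best peak of every Hox gene lay under the median best peak of all genes. Among Hox genes with a peak, the median of the best −log10 q per gene was 10.9 in OE, 6.61 in mi8, 7.62 in HP109 and 10.3 in LMP8. Over all genes with a peak it was 60.3 in OE, 69.3 in mi8, 74.2 in HP109 and 42.7 in LMP8. The best peak stayed under 10 at 6 of 13 Hox genes in OE, 12 of 20 in mi8, 15 of 24 in HP109 and 7 of 15 in LMP8, whereas 7.98%, 6.68%, 6.76% and 9.53% of all genes with a peak were that weak in OE, mi8, HP109 and LMP8. Peak by peak, the median −log10 q in Hox windows was 9.91 in OE, 6.61 in mi8, 7.16 in HP109 and 7.84 in LMP8, against 15.1, 14.5, 14.8 and 11.7 in all gene windows. The Hox median was thus under that of all gene windows in every list, although single Hox peaks stood above it, and OE, the shortest list, had the highest Hox median.

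**Figure D2:**
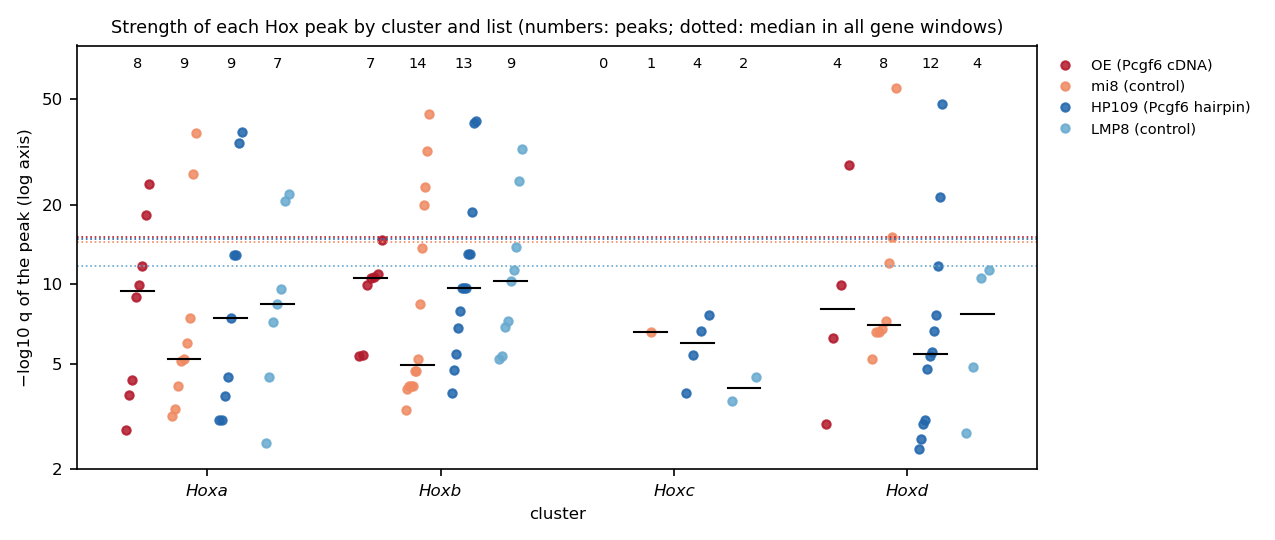
The −log10 q of every Hox peak (log axis), by cluster and peak list, with the number of peaks above each column and the column's median as a bar. Dotted lines are the median of all gene windows in each list, from 11.7 in LMP8 to 15.1 in OE; most Hox peaks lie under them, and OE has no point at Hoxc.

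The 4 clusters differed in where the open sites lay. The Hoxa cluster, on chromosome 6, held 8 peaks in OE, 9 in mi8, 9 in HP109 and 7 in LMP8. The Hoxb cluster, on chromosome 11, held 7 in OE, 14 in mi8, 13 in HP109 and 9 in LMP8. The Hoxd cluster, on chromosome 2, held 4 in OE, 8 in mi8, 12 in HP109 and 4 in LMP8. The Hoxc cluster, on chromosome 15, was the emptiest, with 0 in OE, 1 in mi8, 4 in HP109 and 2 in LMP8 over 80.4 kb of windows. Every Hox peak with a −log10 q of at least 20 lay in the window of Hoxa3, Hoxa4, Hoxb3, Hoxb4, Hoxb5 or Hoxd3, which are genes of paralog groups 3, 4 and 5 toward the anterior end. In Hoxa the counts of the 4 lists lay within 2 peaks of each other, while in Hoxb the longer lists held more. In Hoxb several HP109 peaks overlapped a single LMP8 peak, so the peak counts there are not counts of separate sites. HP109 and LMP8 each also had Hoxb sites that the other lacked. In Hoxd, mi8 and HP109 held more than OE and LMP8, and HP109 held more than the slightly longer mi8 list.

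**Figure D3:**
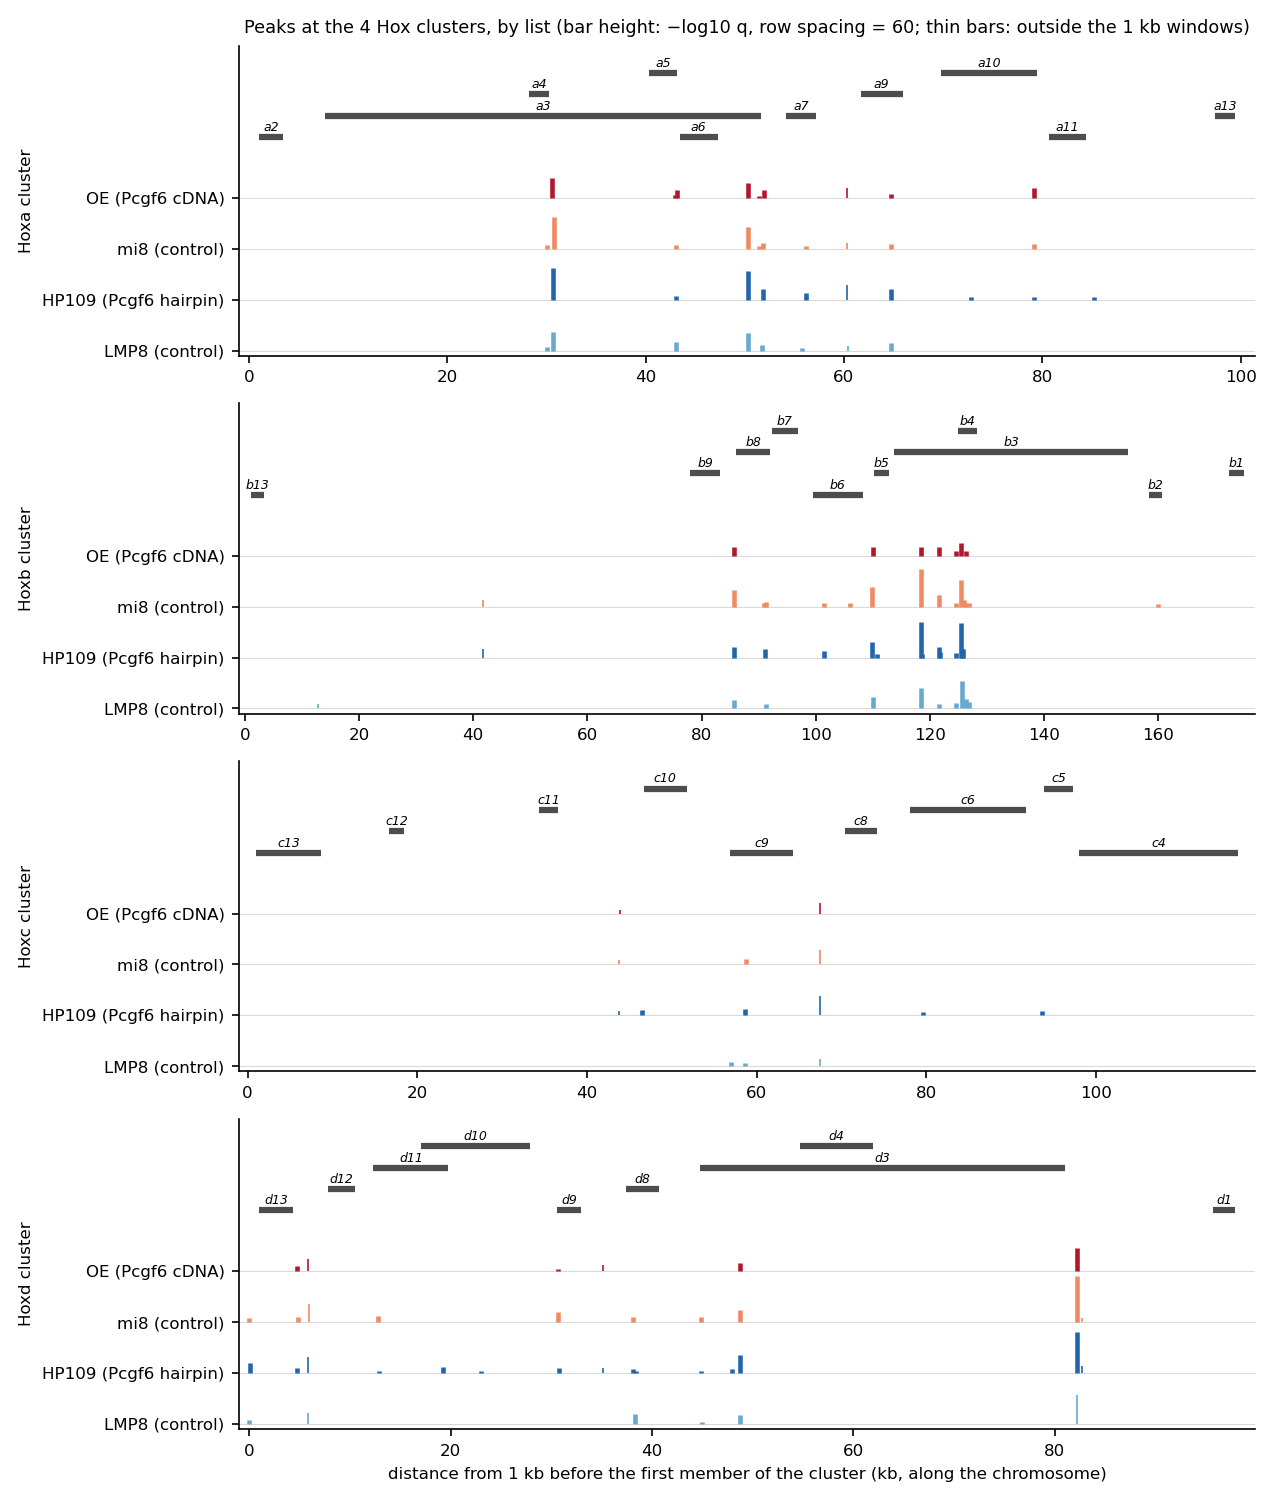
Maps of the 4 clusters: the horizontal axis is the distance along the chromosome from 1 kb before the first described gene (kb), grey bars are gene spans named by cluster letter and number, and coloured bars are peaks with height proportional to −log10 q, in rows for OE, mi8, HP109 and LMP8. The tallest bar is the mi8 peak beside Hoxd3 at 55.1, and the rows of Hoxc are nearly empty.

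The group 3 genes Hoxa3, Hoxb3 and Hoxd3, which pattern neck and hindbrain derivatives, had the strongest sites. Their long RefSeq spans cover neighbouring genes, so some of these sites count for a neighbour too. The strongest sites of Hoxb3 in mi8 and HP109, and that of Hoxd3, lie in no neighbour's window. Hoxa3, required for thymus and parathyroid, had 6 peaks in OE, 6 in mi8, 4 in HP109 and 5 in LMP8. Its strongest, at chr6:52191847-52192408, lies just beyond the high-coordinate end of the Hoxa4 span, within the long Hoxa3 span, and so counts for both genes. Every Hoxa promoter in the RefSeq table is on the minus strand, for which that end is the start of a gene, and Hoxa4 itself has no entry there. It reached a −log10 q of 24.0 in OE, 37.2 in mi8, 37.7 in HP109 and 21.9 in LMP8, on 31, 41, 37 and 26 reads at the summit. HP109 and mi8 were thus alike there, and OE and LMP8 lower. A site inside Hoxa3, at chr6:52211570-52211932, followed with 18.3 in OE, 26.2 in mi8, 34.1 in HP109 and 20.6 in LMP8. The promoter site of Hoxa3 was weaker, with 8.95 in OE, 7.43 in mi8, 12.9 in HP109 and 7.19 in LMP8, so that OE stood above mi8 at the start of the gene and below it inside.

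Hoxb3 had 5 peaks in OE, 7 in mi8, 8 in HP109 and 6 in LMP8. These were the most of any gene described in mi8, HP109 and LMP8, but they are not counts of separate sites. At chr11:96311434-96311991, chr11:96314740-96315197 and chr11:96318471-96319431, several HP109 peaks overlapped a single LMP8 peak. At chr11:96319506-96319668 and chr11:96320014-96320276, mi8 and LMP8 had a peak and HP109 had none. The Hoxb3 site at chr11:96311434-96311991 had a −log10 q of 10.5 in OE, 44.0 in mi8, 41.5 in HP109 and 24.5 in LMP8. The summit held 24 reads in OE, against 49 in mi8, the largest gap between those lists at any shared Hox site. It held 42 in HP109, against 32 in LMP8. Hoxb4, known for expanding blood stem cells when overexpressed, lies within the Hoxb3 span and had 3 peaks in OE, 5 in mi8, 4 in HP109 and 4 in LMP8. Its main site, just inside the gene at chr11:96318471-96319431, had 14.7 in OE, 32.1 in mi8, 40.6 in HP109 and 32.4 in LMP8. That site was the strongest Hoxb peak in OE and in LMP8, while the Hoxb3 site led in mi8 and HP109. The 250 bases before the Hoxb4 start held no peak in any list, so the open site followed the start and did not cover it. A weaker site ended just before those bases, at chr11:96317663-96318015, with 5.36 in OE, 4.68 in mi8, 5.47 in HP109 and 6.90 in LMP8.

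Hoxd3 carried the strongest Hox site of all 4 lists. It lies about 1 kb past the end of the gene, at chr2:74749237-74749619, and reached a −log10 q of 28.2 in OE, 55.1 in mi8, 48.1 in HP109 and 33.7 in LMP8, on 39, 54, 50 and 35 reads. The LMP8 peak begins 1014 bp from the gene, just outside the 1 kb window, so it does not count among the 22 LMP8 peaks and the best windowed peak of Hoxd3 in LMP8 is 10.6. Just inside the window rule and just outside it, the same open site therefore gave a windowed peak in 3 lists and none in LMP8. A site within Hoxd3, at chr2:74715756-74716186, had 9.91 in OE, 15.1 in mi8, 21.4 in HP109 and 10.6 in LMP8. Counted together, Hoxd3 had 2 peaks in OE, 3 in mi8, 4 in HP109 and 2 in LMP8.

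The remaining genes with a peak in all 4 lists were Hoxa4, Hoxa5, Hoxa6, Hoxa9, Hoxb5, Hoxb8 and Hoxd13, with 1 to 3 peaks each. Hoxa9, a driver of myeloid leukaemia together with Meis1, had a single peak at chr6:52226021-52226281 with 4.35 in OE, 5.24 in mi8, 12.9 in HP109 and 8.45 in LMP8. Hoxb8, which holds myeloid progenitors in an immature state when forced on, had its best site at chr11:96278890-96279059, with 9.92 in OE, 19.9 in mi8, 12.98 in HP109 and 10.3 in LMP8. Hoxb5 had 10.9 in OE, 23.3 in mi8, 18.7 in HP109 and 13.9 in LMP8 beside its span. Hoxa5, needed for lung development, and Hoxa6 shared 1 site in which the order was different: 9.91 in OE and 5.11 in mi8, with 4.45 in HP109 and 9.62 in LMP8. The summit there held 21 reads in OE, 23 in mi8, 17 in HP109 and 16 in LMP8, over a local background of 2.87 reads in OE, 6.48 in mi8, 4.17 in HP109 and 1.58 in LMP8. The summit reads were thus lower in OE than in mi8 and higher in HP109 than in LMP8, and the order of the −log10 q was the opposite, with a background higher in mi8 than in OE and higher in HP109 than in LMP8. Hoxd13, which shapes the digits, had its best peak at 6.26 in OE, 6.61 in mi8, 11.7 in HP109 and 4.87 in LMP8. These were on different sides of the gene, at chr2:74671932-74672130 in OE and mi8 and at chr2:74667108-74667453 in HP109 and LMP8.

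**Figure D4:**
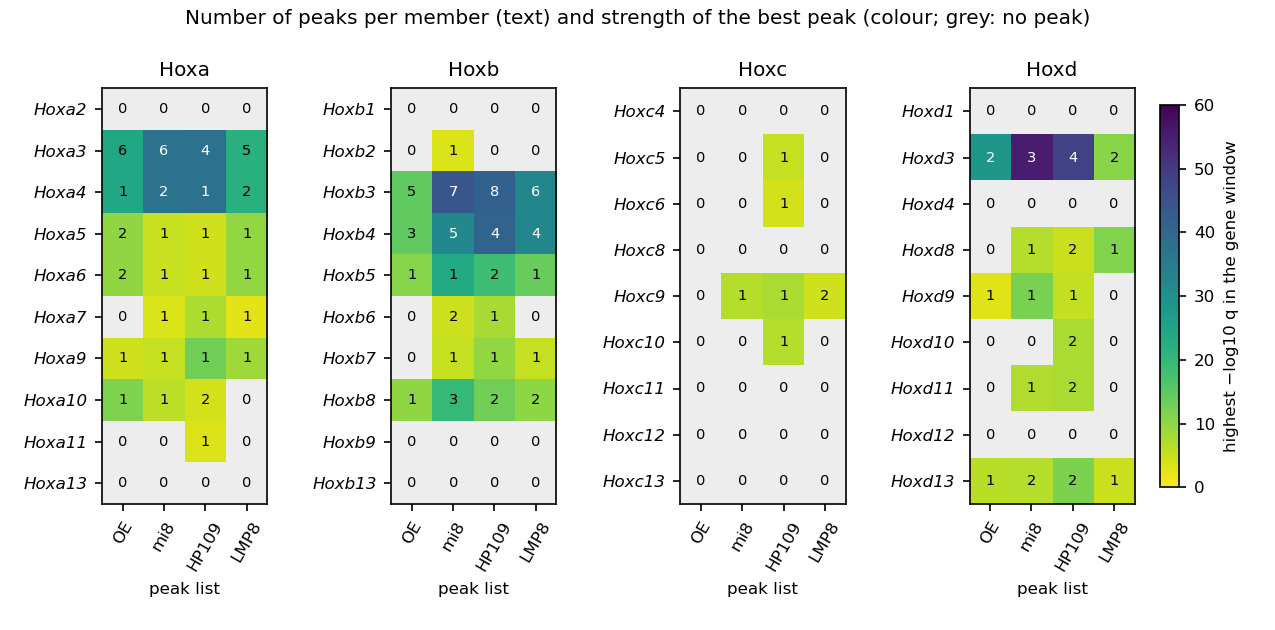
Number of peaks (digits) and highest −log10 q (colour) in the window of each of the 38 genes, in columns for OE, mi8, HP109 and LMP8, with genes ordered by paralog number within each cluster. Group 3 and group 4 genes of Hoxa and Hoxb and the group 3 gene of Hoxd hold the dark cells, up to 55.1 at Hoxd3 in mi8; grey cells are genes with no peak.

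Altogether 11 of the 38 genes (28.9%, interval 15.4 to 45.9) had a peak in all 4 lists, against 68.8% of all genes. A further 13 (34.2%, interval 19.6 to 51.4) had none in any list, against 24% of all genes. Those without a peak were Hoxa2 and Hoxa13 in Hoxa, Hoxb1, Hoxb9 and Hoxb13 in Hoxb, Hoxc4, Hoxc8, Hoxc11, Hoxc12 and Hoxc13 in Hoxc, and Hoxd1, Hoxd4 and Hoxd12 in Hoxd. They include both ends of the clusters: Hoxa2, Hoxb1 and Hoxd1 pattern the hindbrain and head, and Hoxa13, Hoxb13, Hoxc12, Hoxc13 and Hoxd12 posterior or distal structures such as limb, genital tract, tail and hair. The other 14 genes had a peak in some lists and not in others. Over all genes, this mixed state held only the part left by the 68.8% and the 24% above.

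The overexpression vector was set against mi8 to see which Hox sites were listed with added Pcgf6. In Hox windows OE had 19 peaks, against 32 in mi8. All 19 overlapped a mi8 peak, so 0% were absent from mi8 (interval 0 to 17.6), against 4.4% of OE peaks in all gene windows. With peaks under a −log10 q of 5 left out of both lists, 2 of 15 OE peaks (13.3%) were absent from mi8. Conversely, OE lacked a counterpart for 14 of the 32 mi8 peaks (43.75%, interval 26.4 to 62.3), against 38.9% in all gene windows. The Hox share was near that over all genes, and the mi8 list is the longer one throughout. When both lists were reduced to their 111510 strongest peaks the counts turned round, with 19 Hox peaks in OE and 10 in mi8. Of these, 9 OE peaks (47.4%) were absent from mi8, and 0 mi8 peaks were absent from OE. This kept OE peaks down to a −log10 q of 1.31 and mi8 peaks down to 8.65. Weak OE peaks could thus lose their mi8 counterparts by construction. Shares over all gene windows were not computed at this setting or at the cut of 5. Among the mi8 peaks that OE lacked, the strongest lay at Hoxb3 with Hoxb4 (8.41), at Hoxd11 (7.24) and at the annotated start of Hoxd3 (6.76), followed by Hoxd8 and Hoxc9 (6.61 each). None of the 10 mi8 Hox peaks with a −log10 q of at least 10 was absent from OE, so what OE lacked was weak in mi8. In all gene windows, 37.5% of mi8 peaks at 10 to 20 and 3.87% at 20 or more were absent from OE. The Hox peaks in those ranges numbered 4 and 6. Under 5, the Hox share was 70%, against 85.3% in all gene windows, and at 5 to 10 it was 58.3%, against 70.1%.

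Gene by gene, 7 of the 38 Hox genes had a peak in mi8 and none in OE (18.4%, interval 7.74 to 34.3), against 5.36% of all genes, and 0 had the reverse (interval 0 to 9.25), against 0.219%. The 7 were Hoxa7, Hoxb2, Hoxb6, Hoxb7, Hoxc9, Hoxd8 and Hoxd11. Their best mi8 peaks had a −log10 q of 3.38 at Hoxa7, 3.36 at Hoxb2, 4.68 at Hoxb6, 5.23 at Hoxb7, 6.61 at Hoxc9, 6.61 at Hoxd8 and 7.24 at Hoxd11, the last on 15 reads. Hoxb2 patterns the hindbrain, Hoxa7, Hoxb6, Hoxb7, Hoxc9 and Hoxd8 the trunk, and Hoxd11 the forearm and kidney. All these genes thus had mi8 peaks under 10. Among genes whose best mi8 peak was under 10, 7 of 12 Hox genes had none in OE (58.3%, interval 27.7 to 84.8), against 69.4% of all such genes, so the Hox genes did not stand above others with equally weak peaks.

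The hairpin vector was set against LMP8 in the same way. In Hox windows HP109 had 38 peaks, against 22 in LMP8. Of the HP109 peaks 15 were absent from LMP8 (39.5%, interval 24.0 to 56.6), against 23.8% in all gene windows. Of the LMP8 peaks 5 were absent from HP109 (22.7%, interval 7.82 to 45.4), against 7.89%. Both Hox shares were above those over all genes, with the lower ends of their intervals close to the shares over all genes. When each list was reduced to its 111510 strongest peaks, HP109 had 15 Hox peaks and LMP8 16, with 1 HP109 peak (6.67%) absent from LMP8. The lowest −log10 q kept was 8.71 in HP109 and 5.24 in LMP8, and the share over all gene windows was not computed. The strongest HP109 peaks absent from LMP8 were at Hoxb6 (7.95), at Hoxd11 with Hoxd10 (7.62), at Hoxa7 (7.46) and at Hoxc10 and Hoxd13 (6.63 each). None of the 12 HP109 Hox peaks at 10 or more was absent from LMP8, against 13.7% at 10 to 20 and 0.451% at 20 or more in all gene windows. The reverse had an exception, since a LMP8 peak within Hoxb4 at 11.4 had no counterpart in HP109. It was 1 of 5 LMP8 Hox peaks at 10 to 20, against 0.392% of such peaks absent from HP109 in all gene windows. Among HP109 peaks under 5, 58.3% of 12 Hox peaks were absent from LMP8, against 67.04% in all gene windows. At 5 to 10 it was 57.1% of 14, against 45.3%. Of LMP8 Hox peaks, 50% of 6 under 5 and 14.3% of 7 at 5 to 10 were absent from HP109, against 29.1% and 8.06%. Peaks under 5 made up 31.6% of HP109 Hox peaks, against 15.5% in all gene windows. The part of weak peaks in the shares above was not tested.

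By gene, 9 of 38 Hox genes had a peak in HP109 and none in LMP8 (23.7%, interval 11.4 to 40.2), against 2.41% of all genes. The reverse state held for 0 of 38 (interval 0 to 9.25), against 0.558%. The 9 genes were Hoxa10 and Hoxa11, Hoxb6, Hoxc5, Hoxc6 and Hoxc10, and Hoxd9, Hoxd10 and Hoxd11. Their best HP109 peaks were 3.78 at Hoxa10, 3.07 at Hoxa11, 7.95 at Hoxb6, 5.38 at Hoxc5, 3.88 at Hoxc6 and 6.63 at Hoxc10. At Hoxd9 the best HP109 peak was 5.54, and Hoxd10 and Hoxd11 shared a peak at 7.62. Hoxa10, Hoxa11, Hoxc10, Hoxd9, Hoxd10 and Hoxd11 belong to paralog groups 9 to 11, which pattern lumbar and sacral levels, limbs and kidney. All 9 again had peaks under 10, and among genes whose best HP109 peak was under 10, 9 of 15 Hox genes had none in LMP8 (60%, interval 32.3 to 83.7), against 39.9% of all such genes, which lies within the interval.

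Hoxc held several genes with a peak in 1 list alone. Hoxc5, Hoxc6 and Hoxc10 each had 1 peak in HP109, on 11, 11 and 12 reads, and none in OE, mi8 or LMP8. Hoxc9, which patterns thoracic motor neurons, had 1 peak in mi8 (6.61), 1 in HP109 (7.62) and 2 in LMP8 (best 4.45), and none in OE. With summits of 9 to 14 reads over backgrounds of about 2 reads or fewer, each of these calls rests on few reads. Hoxa11 and Hoxd10 likewise had a peak in HP109 alone, and Hoxb2 had one in mi8 alone, on 10 reads. The share of all genes with a peak in HP109 alone or in mi8 alone was not counted.

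Hoxa10 and Hoxd9 were the genes whose missing list was LMP8 while OE had a peak. Hoxa10, active in blood progenitors, had a site at chr6:52240473-52240641 with a −log10 q of 11.7 in OE, 5.99 in mi8 and 3.78 in HP109, and no peak in LMP8. By −log10 q it was strongest in OE. Hoxd9 had 2.96 in OE, 12.05 in mi8 and 5.54 in HP109, and no peak in LMP8. The mi8 peak of Hoxd9 was the only mi8 Hox peak at 10 or more with no counterpart in LMP8. In all gene windows 11.1% of mi8 peaks at 10 to 20 and 0.197% at 20 or more had none.

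The controls differed from each other too. LMP8 had 22 Hox peaks and mi8 32. Of the LMP8 peaks 2 were absent from mi8 (9.09%, interval 1.12 to 29.2), against 6.05% in all gene windows, and of the mi8 peaks 9 were absent from LMP8 (28.1%, interval 13.7 to 46.7), against 24%. No Hox gene had a peak in LMP8 and none in mi8, against 0.398% of all genes, and 5 had the reverse (13.2%, interval 4.41 to 28.1), against 2.57%. These 5 were Hoxa10, Hoxb2, Hoxb6, Hoxd9 and Hoxd11. Among genes whose best mi8 peak was under 10, 4 of 12 Hox genes had none in LMP8 (33.3%, interval 9.92 to 65.1), against 44% of all such genes. The background step was smaller in LMP8 than in mi8, and the part of depth in this difference was not tested.

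Merged over the lists, the Hox windows held 40 open regions. A list counts for a region when any of its peaks overlaps it, so the LMP8 peak just outside the Hoxd3 window counts here. Of the regions, 13 had a peak in all 4 lists, 5 in Hoxa, 6 in Hoxb, 2 in Hoxd and 0 in Hoxc. Another 13 had a peak in 1 list alone, of which 9 were in HP109, 2 in LMP8, 2 in mi8 and 0 in OE. A further 5 regions were in mi8, HP109 and LMP8 and not in OE, 3 in OE, mi8 and HP109 and not in LMP8, 3 in mi8 and HP109, 2 in mi8 and LMP8, and 1 in OE, mi8 and LMP8. Within the Hox windows no region joined OE to another list without mi8, and in all gene windows 4.4% of OE peaks were absent from mi8. Apart from the regions with a peak in all 4 lists, these states were not counted over all gene windows. They are thus not shown to be particular to Hox genes.

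At the 13 regions with a peak in every list the summit reads were set side by side, without scaling for depth. The background steps were close between a vector and its control, while that of LMP8 was smaller than that of mi8. The summit was lower in OE than in mi8 at 12 of the 13 (79.3% of 57464 such regions in all gene windows), with a median ratio of 0.756 at Hox regions, against 0.788 over all. It was higher in HP109 than in LMP8 at 13 of 13 (91.1% over all), with a median ratio of 1.31, against 1.44. The Hox ratios ran from 0.490 to 1.13 for OE over mi8 and from 1.06 to 1.53 for HP109 over LMP8. Both medians lay within the middle range of all regions, with quartiles of 0.622 and 0.954 for OE over mi8 and of 1.24 and 1.65 for HP109 over LMP8. The exception among the OE ratios was the Hoxa3 promoter region, with 17 reads in OE and 15 in mi8. Between the controls the summit was lower in LMP8 than in mi8 at 12 of 13 (97.3% over all), with a median ratio of 0.655, against 0.640.

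**Figure D5:**
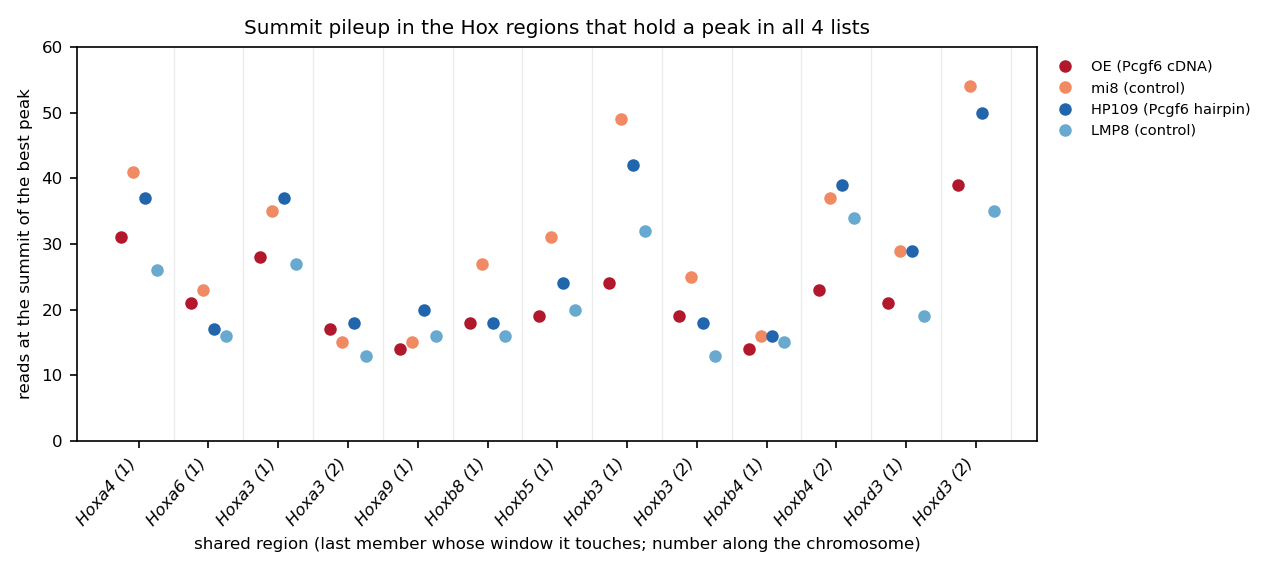
Reads at the summit of the best peak in each of the 13 Hox regions that hold a peak in all 4 lists, with points for OE, mi8, HP109 and LMP8 from left to right; regions are named by the last gene whose window they touch. OE lies under mi8 at 12 of 13 regions, with the widest gap at Hoxb3 (24 and 49 reads), and HP109 lies above LMP8 at 13 of 13.

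Other genes of the Hox system were looked at in the same way. All 11 of 11 TALE cofactors, the homeodomain partners with which Hox proteins bind DNA, had a peak in each list, against 69.7% of all genes in OE, 74.8% in mi8, 74.5% in HP109 and 72.6% in LMP8. Meis1 reached a −log10 q of 90.2 in OE, 116.7 in mi8, 101.7 in HP109 and 64.2 in LMP8, and Tgif1 101.3, 119.9, 101.3 and 55.3 in the same lists. All 16 of 16 regulators of Hox transcription, which include the activator Kmt2a and the Polycomb genes Ezh2, Eed and Suz12, had a peak in each list too. The cofactors were not uniformly strong, since Meis3 had 4.44 and Tgif2 6.70 in OE, below the best peaks of Hoxd3, Hoxa3 and Hoxb4 in that list. ParaHox genes, an evolutionary sister group that includes Cdx and Gsx genes, had a peak at 1 of 6 in OE, 3 in mi8, 3 in HP109 and 3 in LMP8, beside the same shares of all genes. Gsx1 was the strongest of them, with 5.53 in OE, 16.6 in mi8, 20.3 in HP109 and 8.62 in LMP8.

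Of 10 genes that flank the clusters, 8 had a peak in OE, 9 in mi8, 9 in HP109 and 9 in LMP8, against 69.7%, 74.8%, 74.5% and 72.6% of all genes. Calcoco1, next to Hoxc, had a −log10 q of 100.4 in OE, 114.3 in mi8, 122.2 in HP109 and 64.8 in LMP8, and Lnpk, beyond Hoxd, 126.5, 113.3, 129.2 and 59.8. Evx1, a homeobox gene at the end of Hoxa, had no peak in any list. Evx2, its counterpart beside Hoxd13, had 10.1 in OE, 18.8 in mi8, 23.7 in HP109 and 4.77 in LMP8. Skap1 and Ttll6, which flank Hoxb, had weaker peaks, with 10.3 in OE, 21.1 in mi8, 29.3 in HP109 and 7.24 in LMP8 at Skap1, and no peak in OE, 4.27 in mi8, 8.22 in HP109 and 3.94 in LMP8 at Ttll6. The flanking genes thus held both peaks as weak as those of Hox genes and peaks far stronger.

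Markers of other blood cells also differed in number between the lists. Of 6 granulocyte markers 2 had a peak in OE, 5 in mi8, 6 in HP109 and 4 in LMP8, and of 6 lymphoid markers 1 in OE, 4 in mi8, 6 in HP109 and 3 in LMP8. The shares over all genes were 69.7% in OE, 74.8% in mi8, 74.5% in HP109 and 72.6% in LMP8. Of 7 stroma markers 5 had a peak in OE, 7 in mi8, 6 in HP109 and 6 in LMP8. The order of the granulocyte and lymphoid counts over the lists follows that of the Hox genes, and their part in the Hox counts was not tested. In pooled cells, fewer cells with an open site and a less open site in each cell cannot be told apart.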

How the data were processed

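ATAC-seq peak lists of 4 vectors were used, 1 list for the 2 libraries of each vector (OE, mi8, HP109, LMP8), all called against 1 input library. Per the submitters' processing notes, BWA, Picard and MACS2 were used on build mm10; versions, thresholds, read shifting, the way libraries were pooled and the depth behind the word downsample in the labels are not given in the sources at hand. The deposited score, by the authors' files, equals the whole part of 10 times the −log10 q (99.998% of OE peaks, 100% in the other lists). The fold that the authors deposited is a ratio, summit pileup over local background, with 1 added to each before the division. The −log10 p and −log10 q deposited by the authors grade that summit, and the other column used, deposited by the authors, is the summit's offset from the start of the peak.

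Peaks were collapsed to the best −log10 q per interval on chromosomes 1 to 19, X and Y. Summit reads and background were recovered from fold and −log10 p with a Poisson tail, and matched within 0.001 for 100% of peaks in each list. Gene spans, promoters and their sequences came from RefSeq tables of GRCm38.p6. A Hox peak overlaps a gene span or the 1 kb beside it, and a peak is absent from another list when it overlaps no peak there by at least 1 bp. Exact (Clopper-Pearson) 95% intervals cover counting error alone. Total read depth is not stated in the lists, so a list's lower reach limits every statement that a peak is missing. Overlap, window and pileup code was tested on simulated data. Python 3.11.15, numpy 2.4.6, pandas 2.3.3, scipy 1.17.1 and matplotlib 3.10.9 were used.

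The members, gene lists and comparisons were chosen with earlier results of these data known. Genes were named by rule: the strongest member of each cluster in each list, members with a peak in some lists only, members with 5 or more peaks in a list, members with none, and the rest by range; further sets were given as counts with up to 4 examples, and Evx1, Evx2, Skap1, Ttll6 and Itgax were named after their values were seen. 1 of the 39 genes the rule names is not reported here. No test, exon annotation or peak sequence was used, as no genome was at hand.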

Additional observations from a re-analysis of the deposited data

How the results depend on the processing

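Of 92 values recomputed under other settings, 80 kept within limits and 12 moved, which were 7 of 44 counts and 5 of 48 shares. The limits were 1.5 times the reported count and the 95% interval of the reported share, which is wide. Of the 12, 9 moved when every list was reduced to its 111510 strongest peaks, which left a lowest −log10 q of 1.31 in OE, 8.65 in mi8, 8.71 in HP109 and 5.24 in LMP8. Hox peaks then numbered 10 in mi8 and 15 in HP109, and Hox genes with a peak 8 in mi8 and 10 in HP109, while OE kept 19 peaks at 13 genes and LMP8 had 16 peaks at 12 genes. The share of OE Hox peaks absent from mi8 became 47.4% and that of mi8 peaks absent from OE 0%. The share of HP109 peaks absent from LMP8 became 6.67%, that of LMP8 peaks absent from mi8 50% and that of mi8 peaks absent from LMP8 10%. The setting removes weak peaks from the longer lists alone, by its construction. The other moved values came from the window. With the gene span alone 8 Hox genes had a peak in OE, and with 5 kb on each side 24 had one in OE and 23 in LMP8.

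Within those limits, values still shifted. With a −log10 q of at least 5, 13.3% of OE peaks were absent from mi8 and 18.75% of LMP8 peaks. With an overlap of at least 50% of the peak, 18.2% of LMP8 peaks were absent from mi8 and 43.75% of mi8 peaks from LMP8. Whole cluster spans, an alternative chosen after seeing the data, gave 24 Hox peaks in OE, 38 in mi8, 45 in HP109 and 27 in LMP8. No paired analysis was possible because each vector has 1 pooled list. With 1 list per vector, the spread between cultures is unknown. In the pairs of lists compared above, the Hox peaks absent from the other list rest on 8 to 20 reads. OE was not paired with LMP8, and its Hoxa10 peak, with none in LMP8, rests on 23.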

Other observations

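Several open sites of the clusters lay outside the 1 kb gene windows. One between Hoxd13 and Hoxd12, 1319 to 1424 bp from Hoxd13, had a −log10 q of 14.7 in OE, 21.8 in mi8, 18.6 in HP109 and 13.3 in LMP8, above every windowed peak of Hoxd13. One between Hoxc9 and Hoxc8, 2795 to 2860 bp from Hoxc8, had 12.9 in OE, 16.6 in mi8, 22.4 in HP109 and 8.23 in LMP8. It was stronger than any windowed Hoxc peak and the only Hoxc site listed for all 4 vectors. One between Hoxa7 and Hoxa9, 1142 to 1198 bp from Hoxa9, had 11.98 in OE, 6.62 in mi8, 16.9 in HP109 and 5.59 in LMP8. Both Pcgf6 vectors thus stood above their controls there. A site between Hoxd9 and Hoxd8 had a peak in OE (8.04) and in HP109 (6.63), and none in mi8 or LMP8.

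The Hox clusters also hold microRNA genes of the miR-10 and miR-196 families, which repress Hox transcripts. The hairpin of Mir10a, between Hoxb5 and Hoxb4, had a peak within 1 kb in each list, at 5.36 in OE, 4.68 in mi8, 5.47 in HP109 and 6.90 in LMP8. The hairpins of Mir10b, Mir196a-1, Mir196a-2 and Mir196b had none in any list. Summits lay within 1 kb of an annotated Hox start for 8 of 19 peaks in OE, 12 of 32 in mi8, 14 of 38 in HP109 and 7 of 22 in LMP8. Annotated starts were at hand for 22 of the 38 genes, so summits beside genes such as Hoxa4 and Hoxb5 do not count. The share over all gene windows was not computed.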
